A study of Mus musculus with 23 samples.

Results

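The genes described here are Hif1a, which encodes the oxygen-regulated subunit of hypoxia-inducible factor 1 (HIF-1), and 9 genes outside glycolysis that hypoxia induces, namely Egln1, Egln3, Vegfa, Adm, Car9, Pdk1, Bnip3, Ndrg1 and Ankrd37. They were chosen by gene symbol, 10 of the 56748 genes in the count table, and each symbol matched 1 row. All 10 passed the filter on low counts in every fit. RNA was sequenced from 23 tumors grown from B16-F1 cells, a mouse melanoma line, in DBA/2J mice aged 6 to 8 weeks. The line came from another mouse strain, so graft and host differ in their genetic background. In the intraperitoneal (IP) series, mice received saline (CONTROL_IP), norcantharidin at 3 mg/kg (NCTD_IP), pentoxifylline at 60 mg/kg (PTX_IP) or both drugs at those doses (MIX_IP), with 2 tumors per group. In the intratumoral (IT) series, tumors received DMSO (CONTROL_IT, n = 4), norcantharidin at 3 mg/kg (NCTD_IT, n = 4), pentoxifylline at 60 mg/kg (PTX_IT, n = 3) or both (MIX_IT, n = 4). Norcantharidin is a demethylated analog of the protein phosphatase inhibitor cantharidin, and pentoxifylline is a methylxanthine that inhibits phosphodiesterases. The labels give the route as the batch and the vehicle differed with it, so route, batch and vehicle cannot be told apart. The study's methods describe an implant on the right flank in every mouse, and the labels do not name the mouse of each tumor. The p-values measure the spread between tumors only.

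HIF-1 is a dimer of the Hif1a protein and the stable partner Arnt. In oxygenated cells the prolyl hydroxylases encoded by the Egln genes modify the Hif1a protein, and the Vhl ubiquitin ligase then marks it for degradation. When oxygen is short the protein escapes, enters the nucleus and switches on genes for vessel growth, pH control, mitochondrial adjustment and its own hydroxylases, largely without a rise in Hif1a mRNA. Solid tumors such as melanomas outgrow their blood supply and commonly hold hypoxic zones. The RNA of the targets was measured here, and neither oxygen nor Hif1a protein was.

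The tumors had between 2861578 and 6702374 counts each. All 7 melanocyte-lineage markers (Dct, Pmel, Mlana, Tyr, Tyrp1, Mitf, Sox10) were detected in all 23 tumors, with a summed level of 15319 to 37163 CPM (counts per 1000000 counts of the tumor's TMM-scaled library size). Xist, the RNA of the inactive X chromosome, was at 5.19 to 13.6 CPM in the NCTD_IT tumors and at 1.28 to 11.6 CPM in the PTX_IT tumors, where Ddx3y of the Y chromosome was at 0.294 CPM or less. In CONTROL_IT and MIX_IT tumors Ddx3y was at 1.03 to 15.5 CPM and Xist at 0.566 CPM or less. The sex of the host thus moved with NCTD_IT and PTX_IT against both CONTROL_IT and MIX_IT. In the IP series CONTROL_IP replicate 2 had Xist at 8.26 CPM and Ddx3y at 0.451 CPM. Every other IP tumor had Xist at 0 CPM and Ddx3y at 3.28 CPM or more. The study's methods describe the treatment groups as sex-matched. The part of host sex in the results was not tested. The fits with Xist described below cannot settle it in the IT series. There every NCTD_IT and PTX_IT tumor had more Xist than every CONTROL_IT and MIX_IT tumor. MIX_IT replicate 23 stood apart: its fibroblast markers summed to 8601 CPM, against 109 to 1879 CPM in the other 22 tumors, and its melanocyte-lineage sum was the lowest of the 23.

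Promoter windows from RefSeq (build GRCm38.p6), covering 250 bases before and 50 bases from each gene's start, were matched for 9 of the 10 genes, with 2 windows each for Vegfa and Pdk1. Ndrg1 was not matched. The windows of the 4 targets whose NCTD_IT tumors all lay under all CONTROL_IT tumors are shown with that of Hif1a for contrast. They are written 5′ to 3′ on the gene's strand, and capitals mark the core of the hypoxia response element, ACGTG or GCGTG, on either strand, so that a match on the opposite strand reads CACGT or CACGC.
Egln1 (chr8:124949205-124949504, minus strand): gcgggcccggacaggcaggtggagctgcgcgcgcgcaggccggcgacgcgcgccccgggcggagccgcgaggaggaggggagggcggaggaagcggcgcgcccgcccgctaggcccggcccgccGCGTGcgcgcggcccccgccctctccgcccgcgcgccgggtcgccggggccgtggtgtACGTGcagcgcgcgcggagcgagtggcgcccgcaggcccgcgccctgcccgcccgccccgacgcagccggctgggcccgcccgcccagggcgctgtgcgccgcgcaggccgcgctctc
Adm (chr7:110627407-110627706, plus strand): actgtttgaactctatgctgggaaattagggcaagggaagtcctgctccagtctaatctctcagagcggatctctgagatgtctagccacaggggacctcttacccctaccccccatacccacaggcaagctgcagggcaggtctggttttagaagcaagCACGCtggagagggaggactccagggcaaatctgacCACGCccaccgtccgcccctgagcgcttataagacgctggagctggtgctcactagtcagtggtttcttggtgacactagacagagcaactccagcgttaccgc
Car9 (chr4:43506776-43507075, plus strand): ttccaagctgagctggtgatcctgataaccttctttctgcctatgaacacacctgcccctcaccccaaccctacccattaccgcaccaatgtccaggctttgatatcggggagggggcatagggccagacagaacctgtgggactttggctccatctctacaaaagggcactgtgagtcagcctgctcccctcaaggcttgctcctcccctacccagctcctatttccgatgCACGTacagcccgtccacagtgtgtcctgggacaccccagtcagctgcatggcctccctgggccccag
Pdk1 (chr2:71872974-71873273, plus strand): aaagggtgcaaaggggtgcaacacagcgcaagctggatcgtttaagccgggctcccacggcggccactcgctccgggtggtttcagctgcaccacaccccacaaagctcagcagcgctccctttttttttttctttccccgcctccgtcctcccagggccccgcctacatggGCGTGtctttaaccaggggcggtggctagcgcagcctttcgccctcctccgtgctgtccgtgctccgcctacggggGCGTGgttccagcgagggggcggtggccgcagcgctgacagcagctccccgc
Hif1a (chr12:73907617-73907916, plus strand): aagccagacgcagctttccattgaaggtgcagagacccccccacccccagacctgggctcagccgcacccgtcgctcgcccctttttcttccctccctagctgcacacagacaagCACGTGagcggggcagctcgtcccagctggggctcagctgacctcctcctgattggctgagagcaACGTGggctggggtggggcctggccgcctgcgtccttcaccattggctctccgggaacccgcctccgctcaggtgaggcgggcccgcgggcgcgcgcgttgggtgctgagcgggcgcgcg

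The Egln1 window held GCGTG 126 bases before the start and ACGTG 68 bases before it. Adm had GCGTG on the opposite strand at 90 and 54 bases before the start. Car9 had ACGTG on the opposite strand 18 bases before it. The first Pdk1 window had GCGTG at 78 and 2 bases before the start, and its second window had no match. Hif1a itself carried ACGTG 70 bases before the start and an overlapping pair on both strands, read as CACGTG, at 135 bases. Of the windows not printed, Bnip3 had 5 matches, Ankrd37 had 4 and Egln3 had 1. Of the 2 Vegfa windows, both on the minus strand, the upstream one (chr17:46032328-46032627) had no match. The downstream one (chr17:46025114-46025413) had 2. In all, 9 of the 11 windows held either motif (81.8%), against 43.8% of 32817 promoter windows of the same length, and 7 of the 11 held ACGTG, against 19.6%. Both counts include the downstream Vegfa window, whose 2 matches lie downstream of the start in the upstream window. G and C made up 40.3% to 86.0% of the members' windows, and the background was not matched for it. A match describes letters in the window and does not show binding.

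In the IT series the fitted difference from CONTROL_IT was negative for 7 of the 9 targets in NCTD_IT and for all 9 in MIX_IT, and positive for Hif1a in both, but none of these differences passed the test. The median log2 fold change (log2FC) of the 9 targets was -0.64 in NCTD_IT, -0.90 in MIX_IT and -0.24 in PTX_IT, beside medians of 0.03, 0.01 and 0.02 over all 12480 genes tested. With log2 CPM of Xist as a covariate the medians of NCTD_IT and PTX_IT turned to 0.23 and 0.19, with 4 of the 9 targets negative in each, and that of MIX_IT was -1.04. Every NCTD_IT and PTX_IT tumor had more Xist than every CONTROL_IT tumor, so this fit cannot tell host sex from treatment. The PTX_IT median also ranged from 0.04 without PTX_IT replicate 15, with 3 of 9 negative, to -0.69 without PTX_IT replicate 16. In the IP series the medians were -0.06 (NCTD_IP), -0.13 (PTX_IP) and 0.10 (MIX_IP). Without CONTROL_IP replicate 1 the NCTD_IP median was 0.09, and without CONTROL_IP replicate 2 the PTX_IP median was -0.30 and the MIX_IP median -0.09. No target and not Hif1a reached an adjusted p under 0.05 in edgeR's quasi-likelihood test in any of the 12 comparisons made. In NCTD_IT 0 of 10 passed, against 1.37% of all genes. In the 2 other IT groups against CONTROL_IT and in the 3 IP groups 0 of 10 passed, where 0% of all genes did. These are bulk tumors, so fewer cells of a type and less RNA per cell cannot be told apart.

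**Figure D1:**
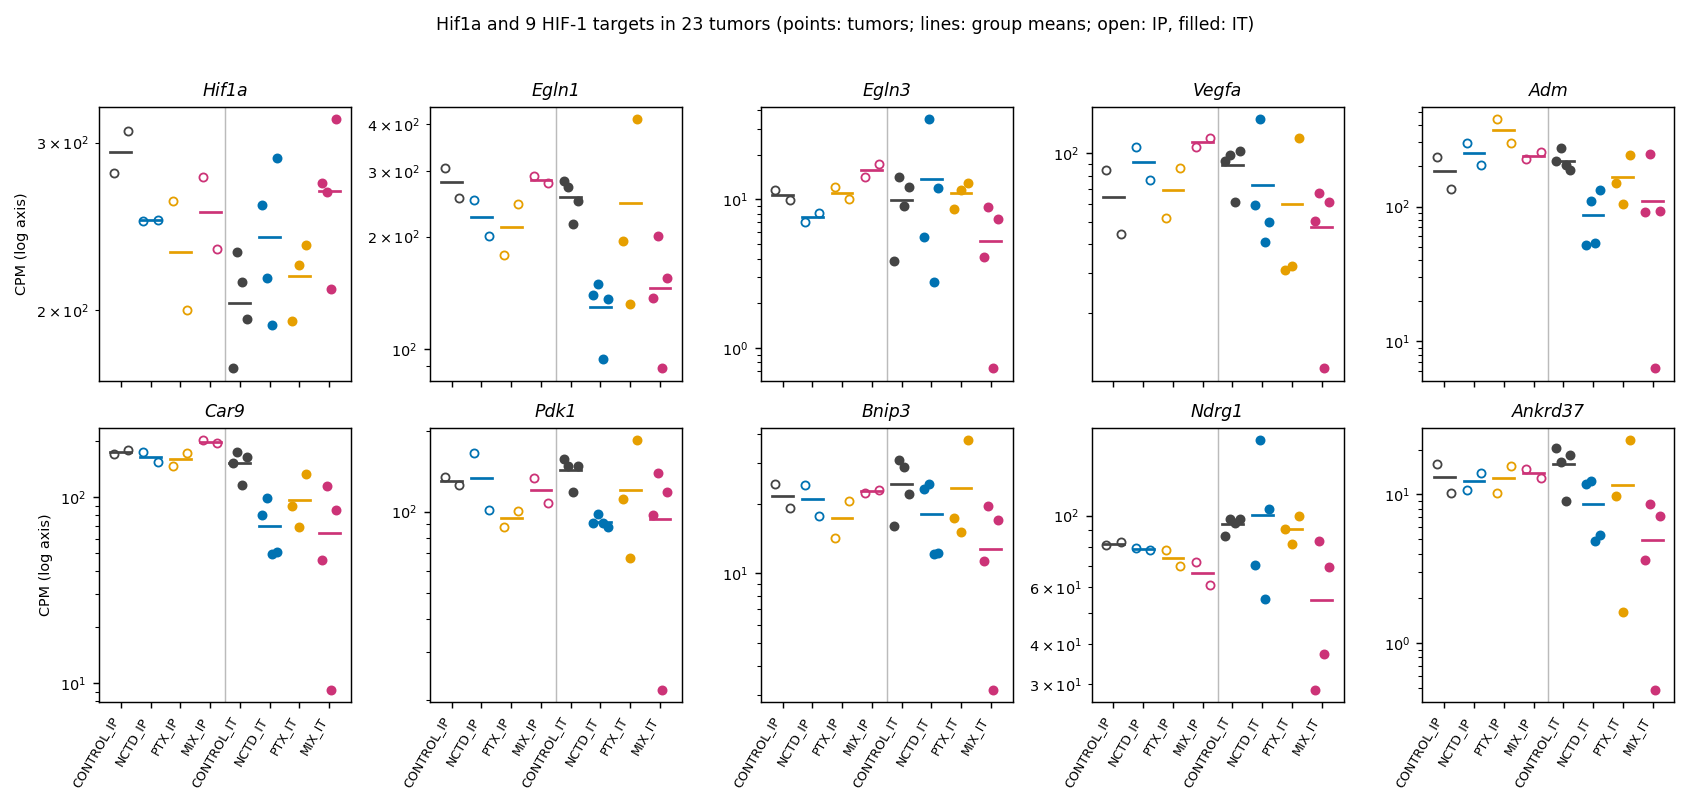
CPM of Hif1a and the 9 targets (vertical log axes, a scale of its own in each panel) in 23 tumors by group (horizontal axis); points are tumors, open for IP and filled for IT, and lines are group means. All 4 NCTD_IT tumors lie under all 4 CONTROL_IT tumors for Egln1, Adm, Car9 and Pdk1, and MIX_IT replicate 23 is the lowest of the 23 tumors for 8 of the 9 targets.

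Hif1a (ENSMUSG00000021109, GRCm39 chr12:73948149-73994304, plus strand) varied little. Its level ran from 174 CPM in CONTROL_IT replicate 9 to 317 CPM in MIX_IT replicate 24, a 1.83-fold range, and its SD of log2 CPM over the 23 tumors was at the 8.65th percentile of all genes tested. The 4 CONTROL_IT tumors were at 174, 230, 214 and 196 CPM, the 4 NCTD_IT tumors at 258, 216, 193 and 289 CPM, the 3 PTX_IT tumors at 195, 223 and 234 CPM, and the 4 MIX_IT tumors at 272, 266, 210 and 317 CPM. All IT groups overlapped the control, and 3 of the 4 MIX_IT tumors were above every control tumor. The log2FC was 0.23 (SE 0.17, adjusted p = 0.443) in NCTD_IT, 0.09 (SE 0.18, adjusted p = 0.942) in PTX_IT and 0.38 (SE 0.17, adjusted p = 0.341) in MIX_IT. The unadjusted p in MIX_IT was 0.0348, and Hif1a was the 1 member of 10 higher at an unadjusted p under 0.05, against 7.88% of all genes. In the IP series, CONTROL_IP was at 279 and 308 CPM, NCTD_IP at 248 and 249 CPM, PTX_IP at 261 and 200 CPM, and MIX_IP at 276 and 232 CPM. All 6 treated IP tumors were under both controls, with log2FC of -0.24, -0.35 and -0.20 and adjusted p of 0.906 or more.

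The hydroxylases came next. Egln1 (ENSMUSG00000031987, GRCm39 chr8:125635326-125676063, minus strand) encodes PHD2, the main prolyl hydroxylase that limits HIF-1 in oxygen and itself a HIF-1 target. CONTROL_IT tumors were at 282, 272, 216 and 250 CPM, NCTD_IT tumors at 140, 150, 94.0 and 136 CPM, and MIX_IT tumors at 137, 201, 88.8 and 155 CPM. Both groups lay under every control tumor. The log2FC was -0.97 (SE 0.30, adjusted p = 0.0826) in NCTD_IT, or 0.510 of the control level, and -0.81 (SE 0.30, adjusted p = 0.265) in MIX_IT, or 0.569 of it. In DESeq2, the alternative tool, both passed (adjusted p = 6.3e-05 and 0.0421). PTX_IT tumors were spread from 132 to 412 CPM (132, 195 and 412), on both sides of the controls, with a log2FC of -0.04 (SE 0.32). Egln1 in IP tumors ran from 179 to 306 CPM, and its log2FC was -0.30 in NCTD_IP, -0.40 in PTX_IP and 0.04 in MIX_IP.

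Egln3 (ENSMUSG00000035105, GRCm39 chr12:54225767-54250646, minus strand) encodes PHD3, a second hydroxylase that hypoxia strongly induces. It was at 3.86, 14.2, 9.07 and 12.2 CPM in CONTROL_IT, at 5.56, 34.7, 2.77 and 12.0 CPM in NCTD_IT, at 8.64, 11.6 and 12.8 CPM in PTX_IT, and at 4.07, 8.90, 0.728 and 7.33 CPM in MIX_IT. The NCTD_IT tumors held both the highest Egln3 value of the 23 (replicate 18) and the second lowest (replicate 19). The log2FC of 0.47 in NCTD_IT (SE 0.67, adjusted p = 0.723) turned to -0.53 without replicate 18, a tumor whose neutrophil markers summed to 1124 CPM, against 6.18 to 48.1 CPM in the other 22. The value of MIX_IT replicate 23 rested on 3 counts. In the IP series CONTROL_IP was at 11.6 and 9.91 CPM, NCTD_IP at 7.00 and 8.12 CPM, PTX_IP at 12.1 and 10.0 CPM, and MIX_IP at 14.1 and 17.4 CPM. MIX_IP was above and NCTD_IP under both controls, with log2FC of 0.56 (SE 0.31) and -0.50 (SE 0.32) and adjusted p of 0.999 for each.

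Of the secreted products, Adm (ENSMUSG00000030790, GRCm39 chr7:110226868-110229027, plus strand) encodes adrenomedullin, a vasodilator peptide. It had the widest span of the 7 targets with more than 3 counts in every tumor, from 6.31 CPM (26 counts) in MIX_IT replicate 23 to 444 CPM in PTX_IP replicate 3, or 70.3-fold, and its SD of log2 CPM was at the 96.8th percentile of all genes tested. CONTROL_IT tumors were at 216, 269, 202 and 185 CPM and NCTD_IT tumors at 52.0, 110, 53.2 and 132 CPM. The 2 groups did not overlap, and the log2FC was -1.33 (SE 0.61, adjusted p = 0.22), or 0.397 of the control level. DESeq2 gave an adjusted p of 0.000358. PTX_IT tumors were at 150, 105 and 241 CPM (log2FC -0.39, SE 0.65) and MIX_IT tumors at 91.8, 246, 6.31 and 92.9 CPM (log2FC -1.003, SE 0.61, adjusted p = 0.505). In MIX_IT, 3 tumors were under and replicate 22 within the control range.

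In the IP series CONTROL_IP was at 232 and 135 CPM, PTX_IP at 444 and 295 CPM, NCTD_IP at 294 and 203 CPM, and MIX_IP at 224 and 252 CPM of Adm. Both PTX_IP tumors were above both controls, and the log2FC of 1.01 (SE 0.31) had an unadjusted p of 0.00872 and an adjusted p of 0.906. Adm was the 1 member of 10 higher at an unadjusted p under 0.05 in PTX_IP, against 3% of all genes. Without CONTROL_IP replicate 2 the log2FC was 0.67. With Xist as a covariate it was also 0.67 (unadjusted p = 0.0751), and no member was higher at an unadjusted p under 0.05 in PTX_IP in that fit. CONTROL_IP replicate 2 was the only IP tumor with Xist above 0 CPM, so these 2 fits were not separate checks. The norcantharidin effect by IT minus that by IP was -1.77 log2 units for Adm (SE 0.96, adjusted p = 0.513), so a difference between the routes was not detected.

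Vegfa (ENSMUSG00000023951, GRCm39 chr17:46327919-46343295, minus strand) encodes the main growth factor for vessel endothelium. It was at 92.2, 98.8, 61.2 and 103 CPM in CONTROL_IT, at 59.6, 141, 40.8 and 50.1 CPM in NCTD_IT, at 30.9, 32.2 and 117 CPM in PTX_IT, and at 50.7, 67.3, 11.4 and 61.1 CPM in MIX_IT. Every treated IT group overlapped the control, although 3 of the 4 NCTD_IT, 2 of the 3 PTX_IT and 3 of the 4 MIX_IT tumors were under all 4 controls. The log2FC was -0.28 (SE 0.51) in NCTD_IT, -0.55 (SE 0.55) in PTX_IT and -0.90 (SE 0.51, adjusted p = 0.476) in MIX_IT. Without PTX_IT replicate 16 the Vegfa log2FC in PTX_IT was -1.50 (SE 0.58, adjusted p = 0.254). In the IP series, MIX_IP was at 107 and 117 CPM against 84.8 and 44.3 CPM in CONTROL_IP. The log2FC was 0.81 (SE 0.34, unadjusted p = 0.0426, adjusted p = 0.999), and Vegfa was the 1 member of 10 higher at an unadjusted p under 0.05 in MIX_IP, against 1.39% of all genes. That log2FC varied with the control tumors included. It was 0.41 without CONTROL_IP replicate 2, 1.35 without CONTROL_IP replicate 1, and 0.41 (unadjusted p = 0.28) with Xist as a covariate. As for Adm, the fit without CONTROL_IP replicate 2 and the Xist fit were not separate checks. NCTD_IP was at 106 and 76.2 CPM and PTX_IP at 52.1 and 86.3 CPM.

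Car9 (ENSMUSG00000028463, GRCm39 chr4:43506966-43513729, plus strand) encodes carbonic anhydrase 9, a surface enzyme that exports acid equivalents and is widely used as a marker of hypoxic tumor cells. CONTROL_IT tumors were at 153, 175, 117 and 165 CPM, NCTD_IT tumors at 80.2, 99.6, 49.4 and 50.7 CPM, PTX_IT tumors at 89.7, 68.97 and 133 CPM, and MIX_IT tumors at 45.8, 116, 9.22 and 85.3 CPM. All NCTD_IT and all MIX_IT tumors were under all control tumors, although MIX_IT replicate 22, at 116 CPM, was just under the lowest control at 117 CPM. The log2FC was -1.12 (SE 0.48, adjusted p = 0.186) in NCTD_IT and -1.25 (SE 0.48, adjusted p = 0.277) in MIX_IT, or 0.460 and 0.420 of the control level, and -0.64 (SE 0.51) in PTX_IT. DESeq2 passed Car9 in NCTD_IT (adjusted p = 0.000583) and not in MIX_IT (adjusted p = 0.381). IP tumors were close together, from 147 to 203 CPM, and the log2FC of Car9 by IP was -0.09 in NCTD_IP, -0.13 in PTX_IP and 0.20 in MIX_IP.

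Pdk1 (ENSMUSG00000006494, GRCm39 chr2:71703568-71734202, plus strand) encodes a mitochondrial kinase that inhibits pyruvate dehydrogenase and so keeps pyruvate from being turned into acetyl-CoA. CONTROL_IT tumors were at 157, 147, 119 and 147 CPM and NCTD_IT tumors at 90.6, 97.8, 90.6 and 87.5 CPM. The NCTD_IT tumors had an SD of 4.38 CPM and none reached the lowest control. The log2FC was -0.64 (SE 0.39, adjusted p = 0.349), or 0.643 of the control level, and DESeq2 gave an adjusted p of 0.00527. MIX_IT tumors were at 96.8, 139, 21.8 and 118 CPM (log2FC -0.61, SE 0.38, adjusted p = 0.535) and PTX_IT tumors at 111, 67.4 and 184 CPM (log2FC -0.24, SE 0.42), both overlapping the control. In the IP series Pdk1 was at 88.0 and 101 CPM in PTX_IP, under the 134 and 125 CPM of CONTROL_IP, with a log2FC of -0.46 (SE 0.25, adjusted p = 0.906).

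Bnip3 (ENSMUSG00000078566, GRCm39 chr7:138492565-138511248, minus strand) encodes a mitochondrial outer membrane protein that promotes removal of mitochondria. It was at 15.96, 30.9, 28.7 and 22.1 CPM in CONTROL_IT, at 23.1, 24.4, 12.1 and 12.3 CPM in NCTD_IT, at 17.3, 15.2 and 37.5 CPM in PTX_IT, and at 11.3, 19.5, 3.16 and 16.99 CPM in MIX_IT. All 3 treated groups overlapped the control, and the MIX_IT log2FC of -0.93 (SE 0.44) had an unadjusted p of 0.0504. In the 8 IP tumors Bnip3 ranged from 14.2 to 24.3 CPM.

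Ndrg1 (ENSMUSG00000005125, GRCm39 chr15:66801167-66841489, minus strand), a stress-induced gene named for its repression by N-myc, was at 86.5, 97.7, 95.2 and 97.3 CPM in CONTROL_IT and at 28.9, 83.3, 37.4 and 69.3 CPM in MIX_IT. The MIX_IT tumors were all under the controls, with a log2FC of -0.79 (SE 0.33, adjusted p = 0.327), or 0.580 of the control level. NCTD_IT tumors were at 70.2, 171, 55.0 and 105 CPM, on both sides of the controls (log2FC 0.09, SE 0.33), and this turned to -0.29 without replicate 18. PTX_IT tumors were at 90.9, 81.9 and 99.9 CPM, and the IP tumors at 61.2 to 82.8 CPM. Between the 2 groups, MIX_IT against NCTD_IT had a log2FC of -0.88 (SE 0.33, unadjusted p = 0.0173, adjusted p = 0.803) for Ndrg1, although the groups overlapped.

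Ankrd37 (ENSMUSG00000050914, GRCm39 chr8:46449939-46458744, minus strand) encodes a small ankyrin repeat protein. CONTROL_IT tumors were at 20.6, 16.4, 9.07 and 18.4 CPM, NCTD_IT tumors at 11.8, 12.3, 4.84 and 5.33 CPM, PTX_IT tumors at 9.75, 1.61 and 23.1 CPM, and MIX_IT tumors at 3.64, 8.58, 0.485 and 7.16 CPM. The MIX_IT tumors were all under the controls and replicate 23 rested on 2 counts. The log2FC in MIX_IT was -1.67 (SE 0.67, adjusted p = 0.303), the largest of the 10 genes in that comparison, and -1.31 (SE 0.60) without replicate 23. In NCTD_IT the Ankrd37 log2FC was -0.89 (SE 0.66, adjusted p = 0.45). IP tumors ranged from 10.2 to 16.1 CPM.

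**Figure D2:**
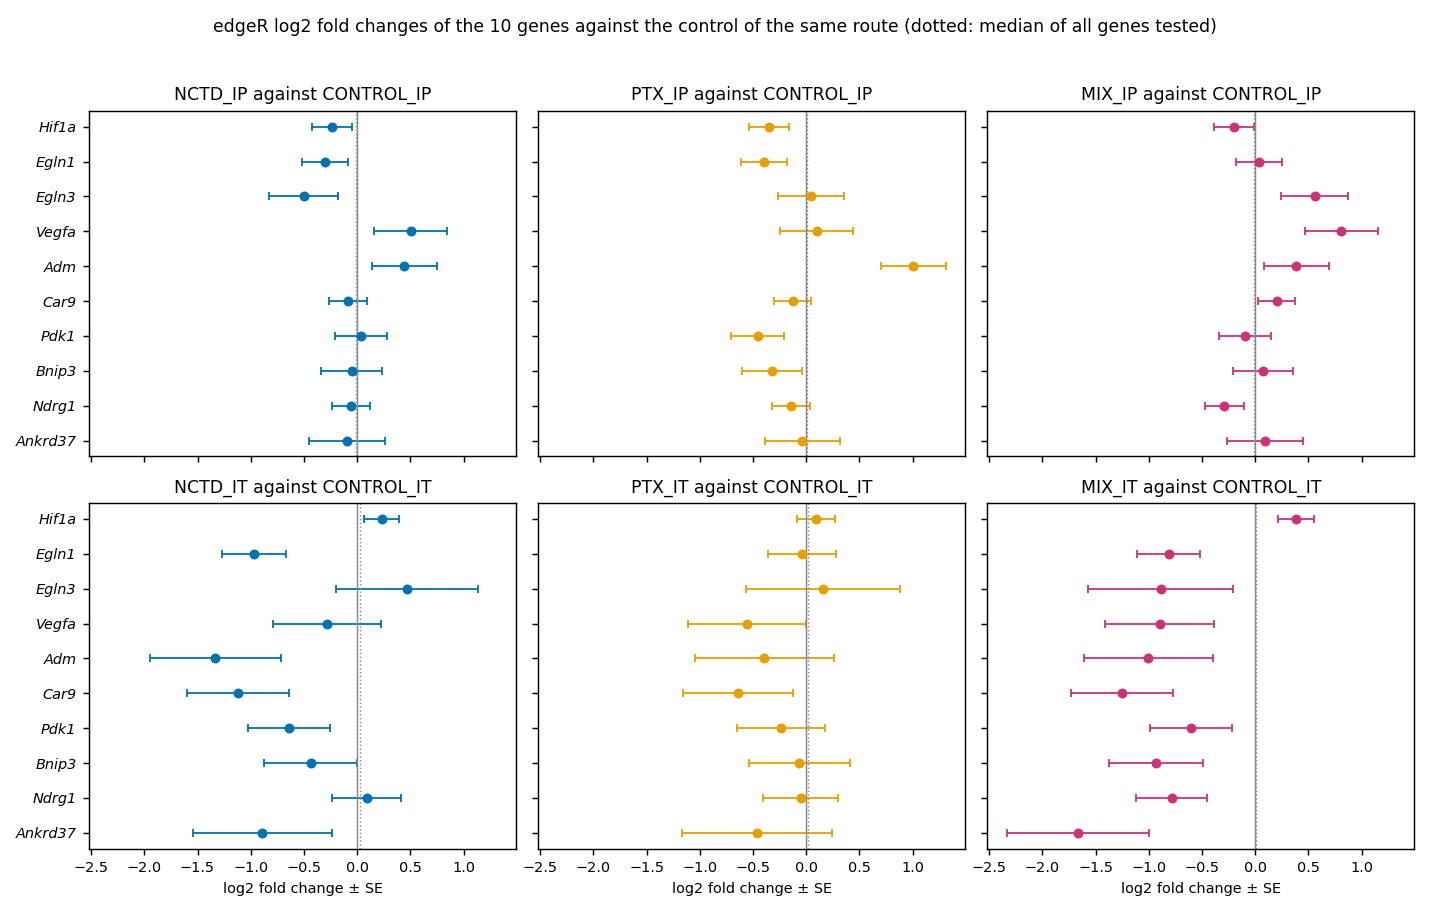
log2FC with SE (horizontal axis) of the 10 genes (vertical axis) against the control of the same route in the 3 IP comparisons (top) and the 3 IT comparisons (bottom), with the median of all genes tested as a dotted line. The 3 comparisons of a route share their control tumors. All 9 targets lie under 0 in MIX_IT (-0.61 to -1.67) and 7 of 9 in NCTD_IT, and Hif1a lies above 0 in all 3 IT comparisons.

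The counts can be read against all genes. In NCTD_IT, 3 of the 10 genes (Egln1, Adm, Car9) were lower at an unadjusted p under 0.05, against 10% of all genes, and 0 were higher, against 11.6%. The 4 genes whose NCTD_IT and CONTROL_IT tumors did not overlap, all lower, compare with 8.95% of all genes. DESeq2 passed those 4 at an adjusted p under 0.05, against 4.73% of genes lower by that tool. In MIX_IT, 4 of 10 (Egln1, Car9, Ndrg1, Ankrd37) were lower at an unadjusted p under 0.05, against 5.11% of all genes, and the 4 did not overlap CONTROL_IT, against 4.98%. DESeq2 passed Egln1 alone in MIX_IT, against 0.651% of genes. In PTX_IT 0 of 10 had an unadjusted p under 0.05, against 4.18% of all genes higher and 2.16% lower, and DESeq2 passed 0, against 0.0959% of genes. In NCTD_IP 0 of 10 had one, against 1.92% higher and 1.67% lower. DESeq2 passed 0 members in the 3 IP comparisons, against 0.0793% of genes in NCTD_IP, 0.0186% in PTX_IP and 0.138% in MIX_IP.

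Leaving out MIX_IT replicate 23 moved the median log2FC of the 9 targets in MIX_IT from -0.90 to -0.62, and all 9 stayed under 0. Egln1 was then at -0.64 (SE 0.30), Car9 at -0.89 (SE 0.32), Ndrg1 at -0.64 (SE 0.35) and Adm at -0.61 (SE 0.40), with adjusted p of 0.472 or more, and Hif1a was at 0.48 (SE 0.16, adjusted p = 0.442). With log2 CPM of Xist as a covariate, the log2FC in NCTD_IT became 0.23 for Egln1 (SE 0.60), 0.40 for Pdk1 (SE 0.83), -1.02 for Adm (SE 1.48) and -0.61 for Car9 (SE 1.08), with adjusted p of 0.92 or more.

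The combination was next set against each drug alone. Against NCTD_IT, Ndrg1 was the 1 member lower at an unadjusted p under 0.05 in MIX_IT, against 2.98% of all genes, and 0 of 10 passed the adjusted threshold, against 0.00801%. Against PTX_IT, Egln1 was the 1 member lower (log2FC -0.77, SE 0.32, unadjusted p = 0.027, adjusted p = 0.982), against 1.68%, and 0% of all genes passed the adjusted threshold. All 10 genes overlapped between the groups in both comparisons, and DESeq2 passed 0 of them, against 0.0663% of genes in the first and 0.0431% in the second. Xist was at 0 CPM in every MIX_IT tumor, so host sex markers differed in both comparisons, and a fit with Xist cannot tell sex from treatment there. With log2 CPM of Xist as a covariate, 0 of 10 were lower at an unadjusted p under 0.05 against NCTD_IT and 3 against PTX_IT. The medians of the 9 targets moved from -0.49 to -1.13 and from -0.73 to -1.24. Without PTX_IT replicate 16, Egln1 was at -0.17 against PTX_IT, and 0 of 10 were lower at that p.

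The effects were also compared between routes. The norcantharidin effect by IT minus that by IP was negative for 7 of the 9 targets (median -0.67), the pentoxifylline effect for 4 (median 0.10), and the effect of the combination for all 9 (median -1.37), beside medians of 0.05, 0.02 and 0.06 over all 13395 genes. With Xist as a covariate these medians were 0.20 for norcantharidin, with 3 of 9 negative, 0.43 for pentoxifylline and -1.19 for the combination, with all 9 negative. Those fits hold the same IT tumors and have the same limit. The pentoxifylline median turned to -0.28 without PTX_IT replicate 16 and to -0.15 without CONTROL_IT replicate 9, and it was -0.01 without PTX_IP replicate 4 or CONTROL_IP replicate 1. For the combination, Vegfa was at -1.69 (SE 0.82, adjusted p = 0.679), Car9 at -1.43 (SE 0.73, adjusted p = 0.691), and Hif1a at 0.60 (SE 0.27, unadjusted p = 0.0381, adjusted p = 0.638), the 1 member higher at an unadjusted p under 0.05, against 4.75% of all genes. None of the 3 tests of the difference passed for any gene, 0% of all genes. Over the 4 pairs of groups, IT minus IP was -0.94 for Car9 (SE 0.25, adjusted p = 0.0843), -0.89 for Adm (SE 0.33, adjusted p = 0.216) and -0.42 for Egln1 (SE 0.17, adjusted p = 0.245). These 3 of 10 were lower at an unadjusted p under 0.05, against 6.08% of all genes, while 0 of 10 passed the adjusted threshold, against 0.739%. With Xist as a covariate 1 of 10 was lower at an unadjusted p under 0.05. The median of the 9 targets then moved from -0.32, with 8 negative, to -0.02, with 5 negative. DESeq2 passed Car9 (adjusted p = 0.0122), against 1.28% of genes lower by that tool, and edgeR passed it without MIX_IT replicate 22 (adjusted p = 0.0368) or replicate 23 (adjusted p = 0.013).

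The order of the 8 group means differed between genes. For Egln1 it ran from MIX_IP at 284 ± 9.34 CPM (SD, n = 2) through CONTROL_IP, CONTROL_IT, PTX_IT, NCTD_IP and PTX_IP to MIX_IT at 146 ± 46.4 CPM (n = 4) and NCTD_IT at 130 ± 24.7 CPM (n = 4). For Car9 it ran from MIX_IP at 199 ± 4.70 CPM (n = 2) to NCTD_IT at 70.0 ± 24.3 CPM (n = 4) and MIX_IT at 64.0 ± 46.4 CPM (n = 4). For Adm it ran from PTX_IP at 369 ± 105 CPM (n = 2) to MIX_IT at 109 ± 99.8 CPM (n = 4) and NCTD_IT at 86.9 ± 40.6 CPM (n = 4). Neighbours in these orders were rarely apart: of the 7 pairs of neighbours, the ranges overlapped in all 7 for Hif1a, Egln1, Egln3, Bnip3 and Ankrd37, and in 6 for Vegfa, Adm, Car9, Pdk1 and Ndrg1. CONTROL_IP had the highest mean of Hif1a, 294 ± 20.8 CPM (n = 2), and CONTROL_IT the lowest, 204 ± 24.3 CPM (n = 4).

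Other genes of the pathway were read from 3 lists. Of the 18 HIF subunits and regulators, 16 were tested against CONTROL_IT. In NCTD_IT, 1 fell and none rose at an adjusted p under 0.05 in edgeR: Elob, a subunit of the ligase complex that Vhl joins, by 0.79 on the log2 scale (SE 0.19, adjusted p = 0.0491). Of all genes 1.37% passed there. DESeq2 passed Elob and Cited2 as lower and Epas1 as higher in NCTD_IT (adjusted p = 0.000452, 0.0223 and 0.0232), against 4.73% of genes lower and 5.91% higher by that tool. Epas1, the HIF-2 subunit and enriched in endothelium, was at 1.25 (SE 0.33, adjusted p = 0.16) and Cited2, a HIF target that restrains HIF-1, at -0.81 (SE 0.33, adjusted p = 0.305) in MIX_IT, where none passed in edgeR or DESeq2. In PTX_IT none passed by either tool, and the smallest p values were those of Epas1 (0.86, SE 0.35, adjusted p = 0.785) and Crebbp (0.37, SE 0.17, adjusted p = 0.786).

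Of 38 other hypoxia-induced genes outside glycolysis, 33 were tested against CONTROL_IT. In NCTD_IT 1 fell and none rose in edgeR, where 1.37% of all genes passed: Mt1, a metallothionein, by 0.84 (SE 0.20, adjusted p = 0.0487). DESeq2 passed 8 as lower and 2 as higher in NCTD_IT, against 4.73% of genes lower and 5.91% higher by that tool. In MIX_IT it passed 2 as lower, against 0.651% of genes. At an unadjusted p under 0.05, 7 were lower and 3 higher in NCTD_IT, and 7 were lower and 2 higher in MIX_IT, beside the shares of all genes given above, and the medians over the list were -0.29 and -0.41. None passed in MIX_IT in edgeR, where the smallest p values were those of Slc16a3, a lactate exporter (-1.60, SE 0.42, adjusted p = 0.16), and Cxcl12, a chemokine of stromal cells (2.53, SE 0.67, adjusted p = 0.16). Of 18 HIF-induced glycolysis genes tested, none passed in edgeR, 11 were lower and 1 higher at an unadjusted p under 0.05 in NCTD_IT, against 10% and 11.6% of all genes, and 8 were lower and none higher in MIX_IT, against 5.11% and 7.88%. The medians were -0.58 and -0.55. Gpi1 (-0.68, SE 0.17, adjusted p = 0.0542) and Eno1 (-1.19, SE 0.34, adjusted p = 0.0661) had the smallest p values in NCTD_IT, and DESeq2 passed 9 of the 18 as lower there, against 4.73% of genes. The medians of the glycolysis list by IP were 0.21 in NCTD_IP, 0.10 in PTX_IP and 0.21 in MIX_IP, with Gapdh at 1.09 (SE 0.23, adjusted p = 0.999), 0.86 (SE 0.23, adjusted p = 0.906) and 1.08 (SE 0.23, adjusted p = 0.999). In DESeq2, Gapdh passed as higher in NCTD_IP (adjusted p = 0.0328), against 0.0649% of genes, and Gapdh and Hk2 did in MIX_IP (adjusted p = 0.00279 and 0.0488), against 0.103%. None of the genes of the 3 lists passed in edgeR in the IP comparisons or between the routes. For the norcantharidin effect by IT minus that by IP, DESeq2 passed Elob, Gpi1 and Gapdh as lower (adjusted p = 0.0285, 0.0156 and 0.0156), against 0.595% of genes, and for IT minus IP over the 4 pairs of groups it passed Rora, Loxl2 and Eno1 as lower (adjusted p = 0.0375, 0.0196 and 0.0348), against 1.28%. Without CONTROL_IT replicate 11, CONTROL_IT replicate 12 or NCTD_IT replicate 18, and with Xist as a covariate, 0 genes of the whole table passed in NCTD_IT, so the calls of Elob and Mt1, and those of the markers given next, were lost in those fits, and 1 gene of the table passed without CONTROL_IT replicate 9 or NCTD_IT replicate 17.

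Markers of other cell types moved in the same comparisons. The 7 fibroblast markers summed to 109 to 369 CPM in CONTROL_IT, 391 to 1681 CPM in NCTD_IT, 260 to 812 CPM in PTX_IT and 494 to 8601 CPM in MIX_IT. All 6 fibroblast markers tested were higher in MIX_IT at an unadjusted p under 0.05 and 5 of 6 in NCTD_IT, against 7.88% and 11.6% of all genes. None passed the adjusted threshold in edgeR, and DESeq2 passed 5 as higher in MIX_IT and 4 in NCTD_IT, against 1.27% and 5.91% of genes. The 8 endothelial markers summed to 63.1 to 93.1 CPM in CONTROL_IT, 93.0 to 169 CPM in NCTD_IT, 74.5 to 107 CPM in PTX_IT and 87.9 to 230 CPM in MIX_IT. In NCTD_IT 1 of the 6 tested rose in edgeR (Emcn, by 1.29, SE 0.29, adjusted p = 0.0414), where 1.37% of all genes passed. DESeq2 passed 3 there and 2 in MIX_IT, against 5.91% and 1.27% of genes higher. Of these markers Tek had a count in 12 of the 23 tumors and Cldn5 in 10. The melanocyte-lineage sum was 26293 to 31953 CPM in CONTROL_IT, 19269 to 27151 CPM in NCTD_IT, 24628 to 30986 CPM in PTX_IT and 15319 to 28969 CPM in MIX_IT. Over the 7 markers the median log2FC was -0.38 in NCTD_IT, -0.05 in PTX_IT and -0.15 in MIX_IT, with 6, 4 and 5 negative. Mitf alone of the 7 passed in edgeR in NCTD_IT, lower by 0.86 (SE 0.18, adjusted p = 0.0363), where 1.37% of all genes passed. In MIX_IT Mitf was at -1.22 (SE 0.18, adjusted p = 0.0603). DESeq2 passed Mitf alone of the 7 in both groups (adjusted p = 0.00129 in NCTD_IT and 5.66e-09 in MIX_IT), against 4.73% and 0.651% of genes lower.

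Of the blood cell markers, the 7 neutrophil markers summed to 6.18 to 12.5 CPM in CONTROL_IT and 19.5 to 1124 CPM in NCTD_IT. The 1124 CPM were those of replicate 18, and the other NCTD_IT tumors were at 30.9, 48.1 and 19.5 CPM. In NCTD_IT 2 of the 5 tested rose in edgeR, S100a9 by 6.63 (SE 1.40, adjusted p = 0.0363) and S100a8 by 5.60 (SE 1.16, adjusted p = 0.0363), where 1.37% of all genes passed. There 4 of 5 were higher at an unadjusted p under 0.05 (median 3.09), against 11.6% of all genes. The neutrophil sum was 9.50 to 23.5 CPM in PTX_IT and 15.8 to 23.5 CPM in MIX_IT, where none passed. The 8 macrophage markers summed to 219 to 1047 CPM in CONTROL_IT, 585 to 1640 CPM in NCTD_IT, 176 to 1423 CPM in PTX_IT and 353 to 835 CPM in MIX_IT. Their median log2FC was 1.26 in NCTD_IT, 1.12 in PTX_IT and 0.43 in MIX_IT. At an unadjusted p under 0.05, 3, 3 and 1 of 8 were higher, against 11.6%, 4.18% and 7.88% of all genes. None passed the threshold in edgeR, and DESeq2 passed 1 (Mrc1) in NCTD_IT, against 5.91% of genes higher by that tool. The 6 T and NK cell markers tested had medians of 1.84, 1.45 and 0.63 in NCTD_IT, PTX_IT and MIX_IT, and none passed by either tool. The erythroid markers summed to 1238 to 6944 CPM in CONTROL_IT and 258 to 1360 CPM in NCTD_IT. Their sum was 302 to 2422 CPM in PTX_IT and 810 to 5149 CPM in MIX_IT. The median log2FC was -1.77 in NCTD_IT, -1.70 in PTX_IT and -0.22 in MIX_IT, with all 4 tested negative in each. In NCTD_IT 3 of 4 were lower at an unadjusted p under 0.05, against 10% of all genes, and DESeq2 passed 1 of them (Hbb-bs), against 4.73% of genes. In PTX_IT and MIX_IT 0 of 4 were lower at that p, against 2.16% and 5.11%. Mitochondrially encoded genes took 2.42% to 2.68% of counts in CONTROL_IT, 2.47% to 6.32% in NCTD_IT, 2.97% to 3.86% in PTX_IT and 3.57% to 5.73% in MIX_IT, so that PTX_IT and MIX_IT lay wholly above CONTROL_IT. Ribosomal RNA took 1.05% to 1.29% in CONTROL_IT, 1.53% to 2.42% in NCTD_IT, 0.872% to 2.15% in PTX_IT and 1.05% to 2.51% in MIX_IT, and NCTD_IT lay wholly above CONTROL_IT. The part of cell composition and of RNA quality in the levels of the targets was not tested.

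The 9 targets varied together from tumor to tumor over the 23 tumors, and no correlation of Hif1a with a target passed the test, although all 9 were positive once group means were removed. Over the 23 tumors, 34 of the 36 pairs of targets correlated at an adjusted p under 0.05 (two-sided permutation test, 45 pairs of the 10 genes), all 36 with a positive Pearson r, with a median of 0.75. The lowest r that passed was 0.48, and of the 89706315 pairs of the 13395 genes, which had a median r of 0.0004, 5.96% had an r as high. The lowest r was 0.39 for Egln1 with Ndrg1 (permutation p = 0.0634, adjusted p = 0.0792, Spearman's rho 0.29 with adjusted p = 0.247). The highest was 0.90 for Adm with Car9 (permutation p = 1e-05, adjusted p = 5e-05, rho 0.75 with adjusted p = 0.000525). The smallest permutation p was 1e-05, the smallest that 100000 permutations can give. The 9 pairs with Hif1a had r from -0.10 to 0.20, and 0 passed. Ndrg1 was the least tied of the targets, with r of 0.39 to 0.62 to every target except Egln3 (0.73).

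The number of pairs that passed depended on the tumors included. Within the 15 IT tumors 33 of 36 pairs passed (median r 0.79), at r of 0.57 or more, which 5.2% of all gene pairs reached, and within the 8 IP tumors 0 of 36 did (exact permutation test, median r 0.23, 22 of 36 positive). On deviations from the group means, with tumors permuted within groups, 27 of 36 pairs passed (median r 0.76). The lowest r that passed on deviations was 0.49, which 34 of the 36 pairs and 7.44% of all gene pairs reached. On that scale all 9 pairs with Hif1a were positive, from 0.24 to 0.51 with a median of 0.39, and 0 passed. Without the 2 tumors farthest from the median of the first gene of each pair, the median r was 0.54 and 35 of 36 pairs were positive, Car9 with Ndrg1 being at -0.04. Without MIX_IT replicate 23, 22 of 36 pairs passed and the median r was 0.56, at r of 0.48 or more, which 5.64% of all gene pairs reached. No correlation of Hif1a with a target passed over all 23 tumors, within either route, on deviations or without MIX_IT replicate 23, and without the 2 farthest tumors r of those pairs was -0.06 to 0.22 and no test was made.

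**Figure D3:**
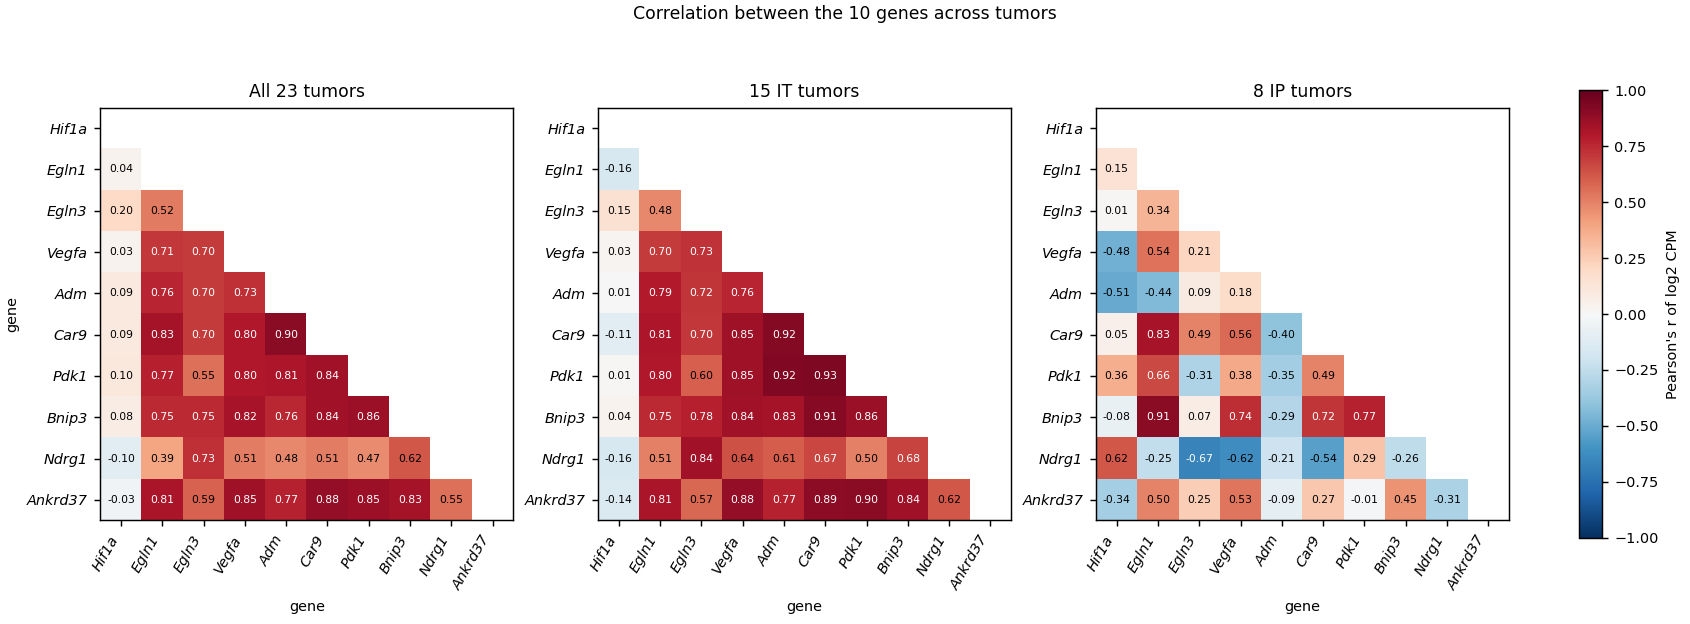
Pearson's r of log2 CPM between the 10 genes (both axes) over all 23 tumors, the 15 IT tumors and the 8 IP tumors, with color from -1 (blue) to 1 (red) and r written in each cell. The targets form a red block in the first 2 panels and the Hif1a column stays near 0 (-0.10 to 0.20 over 23 tumors), while the IP panel mixes both signs.

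The mean of the z-scores of log2 CPM of the 9 targets gives each tumor 1 value. It was 0.28 to 0.78 in the 4 CONTROL_IT tumors, -0.34, 0.59, -1.06 and -0.35 in the NCTD_IT tumors, -0.11, -0.69 and 1.02 in the PTX_IT tumors, -1.03, 0.20, -3.06 and -0.26 in the MIX_IT tumors, and 0.09 to 0.60 in the 8 IP tumors. MIX_IT replicate 23 was lowest, with 8 of the 9 targets at their lowest of the 23 tumors, while its Hif1a level of 210 CPM was within the range of CONTROL_IT. PTX_IT replicate 16 was highest. The 3 PTX_IT tumors were thus farther apart from each other than the 4 CONTROL_IT tumors or the 8 IP tumors. The NCTD_IT and MIX_IT tumors were widely spread too, from -1.06 to 0.59 and from -3.06 to 0.20.

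**Figure D4:**
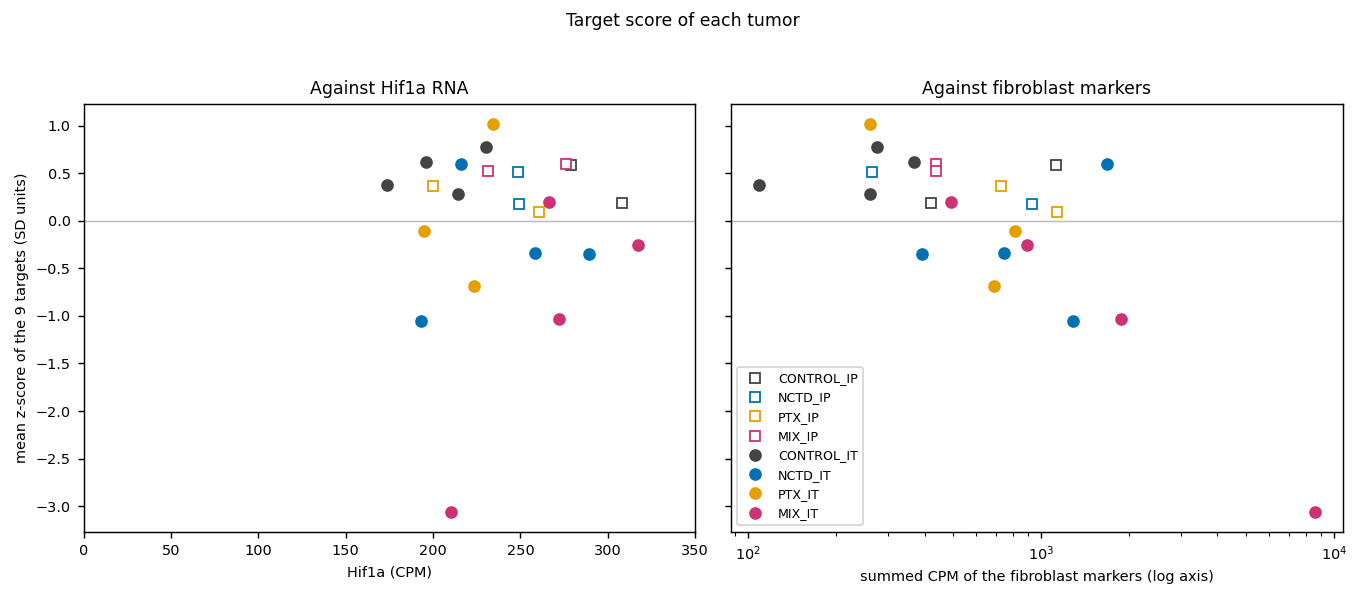
Mean z-score of the 9 targets in each of the 23 tumors (vertical axis, SD units) against Hif1a in CPM (left) and against the summed CPM of 7 fibroblast markers on a log axis (right); squares are IP tumors and circles IT tumors. The 8 IP tumors and the 4 CONTROL_IT tumors lie above 0, and MIX_IT replicate 23 lies at -3.06 with a fibroblast sum of 8601 CPM and Hif1a at 210 CPM.

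The genes outside the 10 whose log2 CPM followed that mean score most closely over the 23 tumors, of 13385 genes, were Slc2a1, the glucose transporter GLUT1 (r = 0.96), Phf10, a subunit of a chromatin remodeling complex (r = 0.92), Higd1a, a hypoxia-induced mitochondrial protein (r = 0.92), Ero1a, an oxidase of the endoplasmic reticulum (r = 0.91), and Ier3, an early response gene (r = 0.91). Spearman's rho for these 5 genes was 0.70 for Phf10 and 0.82 to 0.94 for the others. Within the 8 IP tumors r was 0.95 for Slc2a1, 0.85 for Ero1a, 0.78 for Higd1a, 0.74 for Ier3 and 0.10 for Phf10. Without MIX_IT replicate 23 and NCTD_IT replicate 19, the 2 tumors farthest from the median score, r was 0.89 for Slc2a1, 0.86 for Ero1a, 0.80 for Ier3, 0.76 for Higd1a and 0.75 for Phf10. The lowest Phf10 level was 0.243 CPM, which is under 3 counts. These values describe 23 tumors that share libraries and groups, and no test was made of them.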

How the data were processed

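Total RNA of 23 tumors was made into 3′ mRNA libraries. Per the labels and the study's methods, the authors trimmed reads with Trimmomatic, checked them with FastQC and aligned and quantified them with STAR 2.7.11b on GRCm39. They deposited raw counts per gene. The strand setting and the treatment of multi-mapping reads in counting are not given in the sources used here. A 3′ count does not scale with transcript length, so levels were not compared between genes.

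Samples were grouped by their labels. Each route was fitted on its own in edgeR 4.0.16 (R 4.3.3; TMM scaling, quasi-likelihood test, genes kept by filterByExpr at count 10 and total 15, Benjamini-Hochberg adjustment over all genes), giving 12424 genes tested by IP and 12480 by IT. All 23 tumors were fitted together for comparisons between routes (13395 genes). No gene was imputed and no tumor dropped. DESeq2 1.42.0 was the alternative tool. Total counts were 2861578 to 6702374 per tumor. CPM used the summed counts of the genes kept by the filter times the TMM factors of all 23 tumors. On that scale 3 counts, the floor of detection, equal 0.449 to 1.04 CPM (counting error only). Correlations used log2 CPM with a prior count of 2 and 100000 permutations, or all 40320 orders for the 8 IP tumors, in Python 3.11.15 with numpy 2.4.6. Scripts were tested on simulated data.

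All 10 genes were described. Of the wider lists, genes past the adjusted threshold were named, or else those of smallest p. The gene list, wider lists and markers were chosen with earlier results of these data known.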

Additional observations from a re-analysis of the deposited data

How the results depend on the processing

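No paired analysis was possible because every tumor carries its own replicate number and no number recurs between groups. Over 28 gene and comparison pairs followed through the alternatives, 422 values kept direction and side of the threshold, 28 newly passed it and 9 changed sign. For the 12 counts of members passing, 198 values kept the main count and 16 moved. The counts moved from 0, without the filter on low counts, to 1 in PTX_IP, 3 in NCTD_IT, 6 in MIX_IT, 1 in MIX_IT against NCTD_IT, 1 for the norcantharidin, 1 for the pentoxifylline and 3 for the combination difference between routes, and 3 for IT minus IP. Without that filter, calls over the whole table rose too. They went from 0 to 71 genes in PTX_IP, 171 to 1190 in NCTD_IT and 0 to 364 in MIX_IT. For MIX_IT against NCTD_IT they went from 1 to 190, and for IT minus IP from 99 to 453. For the norcantharidin, pentoxifylline and combination differences between routes they went from 0 to 283, 110 and 139. With DESeq2 they were 4 in NCTD_IT, 1 in MIX_IT and 1 for IT minus IP. In NCTD_IT the count was 1 with all 23 tumors in one model and 4 with only the groups compared, where 777 and 946 genes of the table passed. Leaving out 1 tumor at a time gave 0 to 1 members for IT minus IP, and 1 without PTX_IT replicate 16 (Egln1), MIX_IT replicate 22 (Car9) or MIX_IT replicate 23 (Car9). Without these tumors 166, 168 and 131 genes of the table passed. The cause was not tested. With Xist as a covariate the log2FC in NCTD_IT changed sign to 0.23 for Egln1, -1.06 for Egln3, 0.89 for Vegfa, 0.40 for Pdk1, 0.74 for Bnip3, -0.46 for Ndrg1 and 1.05 for Ankrd37. In that fit Xist separates NCTD_IT, at 5.19 CPM or more, from CONTROL_IT, at 0.566 CPM or less, which leaves SE of up to 1.59. Leaving out 1 tumor at a time gave log2FC of -0.53 to 0.82 for Egln3 and -0.29 to 0.30 for Ndrg1, negative without NCTD_IT replicate 18. The pairs of members that correlated numbered 22 to 36 with 1 tumor left out, 22 without MIX_IT replicate 23 (chosen after seeing the data), 34 with a prior count of 0.5 and 33 with DESeq2 size factors. Where an arm was left with 1 tumor, it was assumed to vary like the other groups. With 2 tumors per IP group, and with Egln3 and Ankrd37 at 2 to 3 counts in MIX_IT replicate 23, small differences could not be detected at this depth.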
